A study of Mus musculus with 40 samples.

Results

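The adult globin transcripts of bone marrow erythroid cells were compared between th3/+ and WT mice in 20 libraries, chosen as the rows of the count table labelled bone marrow, of 40 libraries in all. The other 20 libraries came from the spleens of the same 20 mice. Cells carrying Ter119, a surface antigen of the red cell lineage, were isolated with anti-Ter-119 magnetic beads, and total RNA was sequenced. The study asked how far 2 natural haplotypes of the beta-globin locus modify the severity of beta-thalassemia. The 4 groups of 5 bone marrow libraries were th3/+ and WT mice of the single haplotype, and th3/+ and WT mice of the diffuse haplotype. All mice were labelled C57BL/6J, and no age or sex was used here. The Hbb[th3/+] mice are heterozygous for th3, a deletion of adult beta-globin genes on 1 chromosome, which leaves the adult beta genes of the other chromosome. The table holds only adult globin genes, so the Ter119 label and the stage of the cells could not be checked against other markers.

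Adult haemoglobin is a tetramer of alpha-like and beta-like chains, and erythroid precursors make both in near balance. In beta-thalassemia the beta chains fall short, and unpaired alpha chains precipitate and damage the maturing red cell. The mouse alpha chains come from Hba-a1 and Hba-a2, a pair of genes on chromosome 11 with the theta-like gene Hbq1b between them. The beta chains come from a pair of adult genes on chromosome 7, which is Hbb-bs and Hbb-bt on the single haplotype, and Hbb-b1 (beta-major) and Hbb-b2 (beta-minor) on the diffuse haplotype. Intron counts mostly come from transcripts that are not yet spliced, and exon counts mostly from mature mRNA. In bulk RNA, fewer cells of a stage and less RNA per cell cannot be told apart.

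The coding sequences are nearly the same within the pairs Hbb-bs/Hbb-bt and Hba-a1/Hba-a2. This limits how many coding reads can be given to 1 gene of a pair. In mm10, Hbb-bs (ENSMUSG00000052305.6) spans chr7:103826534-103828096 and Hbb-bt (ENSMUSG00000073940.3) chr7:103812524-103813996, both on the minus strand. Hba-a1 (ENSMUSG00000069919.7) spans chr11:32283511-32284465 and Hba-a2 (ENSMUSG00000069917.7) chr11:32296489-32297298, both on the plus strand. All 4 are split into 3 exons by 2 introns. Over 441 coding bases, Hbb-bt departs from Hbb-bs at 1 position (C417T, codon 139), and over 426 coding bases Hba-a2 departs from Hba-a1 at 1 position (C381T, codon 127). Positions count from 1 at the A of the start codon, with the base of Hbb-bs or Hba-a1 given first. The 41 bases around each of these positions, from the GENCODE M21 transcripts, show the only coding base by which a read can tell the genes of a pair apart, in capitals.
Hbb-bs: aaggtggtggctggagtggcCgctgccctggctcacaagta
Hbb-bt: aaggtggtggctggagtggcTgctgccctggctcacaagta
Hba-a1: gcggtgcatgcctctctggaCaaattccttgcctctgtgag
Hba-a2: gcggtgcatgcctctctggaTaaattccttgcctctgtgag
The Hbb-b1 and Hbb-b2 sequences were not used here. Reads that could belong to either gene of a pair were taken to be those of the Hbb-single column for Hbb-bs/Hbb-bt, the Hbb-diffuse column for Hbb-b1/Hbb-b2 and the Ambiguous column for the alpha genes, a reading that no header states. Shared reads took 28.3% to 36.3% of alpha exon counts and 81.4% to 89.1% of alpha intron counts. They took 15.4% to 17.6% of beta exon counts in single libraries and at most 0.0114% in diffuse libraries, so the division is least certain for the introns of the alpha genes.

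The 150 bases before the RefSeq transcript start (GRCm38.p6) are shown for the beta genes of the single haplotype and for Hba-a1, since these genes changed in opposite directions below. GENCODE M21 starts these genes further upstream than RefSeq, so the windows of Hbb-bs and Hba-a1 lie within the GENCODE spans given above and that of Hbb-bt overlaps its span. Capitals mark the CACCC box, the CCAAT box and the TATAA box on either strand. A CCAAT box on the opposite strand appears as ATTGG. These are the letters of the elements known to be bound at globin promoters by erythroid Krüppel-like factor, by the CCAAT-binding factor NF-Y and by the TATA-binding protein.
Hbb-bs promoter, chr7:103827929-103828078, minus strand: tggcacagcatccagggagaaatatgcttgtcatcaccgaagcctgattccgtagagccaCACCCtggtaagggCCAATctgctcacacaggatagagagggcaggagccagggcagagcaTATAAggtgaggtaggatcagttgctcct
Hbb-bt promoter, chr7:103813924-103814073, minus strand: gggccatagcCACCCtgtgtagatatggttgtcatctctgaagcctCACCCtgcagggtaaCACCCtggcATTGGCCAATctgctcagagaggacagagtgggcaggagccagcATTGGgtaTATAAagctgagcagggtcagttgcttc
Hba-a1 promoter, chr11:32283522-32283671, plus strand: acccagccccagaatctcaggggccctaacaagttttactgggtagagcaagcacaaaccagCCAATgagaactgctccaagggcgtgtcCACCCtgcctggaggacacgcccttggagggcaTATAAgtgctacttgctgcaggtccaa
All 3 windows hold each of these motifs, as does that of Hba-a2, and none of the 4 holds GATAA, the letters of a GATA site. Of 32851 RefSeq promoter windows of the same length, 37.4% hold CACCC, 24.5% hold CCAAT, 14.2% hold TATAA and 13.3% hold GATAA on either strand. Hbb-bt has CACCC at 3 places, 140, 104 and 89 bases before the start, and Hbb-bs has it at 1 place, 90 bases before the start.

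Bone marrow libraries held between 11613844 and 32381045 globin exon counts and between 8005 and 49622 globin intron counts. Counting error was therefore small for exons, and larger for the introns of single genes, the least of which among the genes carried was Hba-a2 with 343 counts in the lowest library. On the single haplotype, 4 WT mice (libraries 1, 2, 4 and 5) had codes of another series than the remaining WT mouse (library 3) and all th3/+ mice. Genotype and code series can thus not be told apart there, and the values of WT single library 3, coded like the th3/+ mice, are given beside the results.

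Every beta gene of the single haplotype took a smaller part of the globin mRNA in th3/+ mice, and both alpha genes a larger one. The share is the exon count of a gene as a percent of all globin exon counts of the library. Of the 6 single-haplotype shares, 6 passed the threshold (100% of those tested), 3 lower (50%) and 3 higher (50%) in th3/+. Hbb-bs, the main adult beta gene of this haplotype, took 33.7%, 36.3%, 34.7%, 37.8% and 32.1% in the th3/+ libraries, against 51.01%, 47.7%, 48.2%, 45.4% and 51.5% in the WT libraries. The groups were fully separate, and the means were 34.9% ± 2.21 in th3/+ and 48.8% ± 2.54 in WT (SD, n = 5 each). Hbb-bt, the second gene, took 9.38%, 9.93%, 9.22%, 9.33% and 9.21% in th3/+ libraries, against 11.03%, 11.6%, 12.0005%, 11.5% and 10.7% in WT libraries. Its groups did not overlap either, but they lay closer together, with a log2 odds difference of -0.30 (95% interval -0.39 to -0.21) against -0.83 (-1.03 to -0.61) for Hbb-bs. A share also depends on how far the other genes moved, so these 2 differences do not measure how far each gene fell. Relative to alpha exon counts, given below, Hbb-bs fell by 57.0% and Hbb-bt by 50.1%.

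Hba-a1 took 20.04%, 18.9%, 19.7%, 18.6% and 21.9% of the counts in th3/+ single libraries, against 10.4%, 11.3%, 10.4%, 13.5% and 10.5% in WT single libraries. Hba-a2 averaged 12.1% ± 0.813 in th3/+ and 7.39% ± 0.866 in WT (SD, n = 5 each), and the reads that both share averaged 14.4% ± 0.924 and 9.39% ± 0.933. All alpha features were higher in all 5 th3/+ libraries than in any WT library, with log2 odds differences of 0.98 for Hba-a1 and 0.79 for Hba-a2. Each of these tests had an exact permutation p of 0.00794 and an adjusted p of 0.00866 (n = 5 each). Shares of a library sum to 100%, so the lower beta shares and the higher alpha shares are not separate results. WT single library 3 had an Hbb-bs share of 48.2% and an Hba-a1 share of 10.4%, within the ranges of the other 4 WT mice. Its Hbb-bt share of 12.0005% lay above their highest value of 11.6%. So did its share of reads shared by Hbb-bs and Hbb-bt, at 12.47% against at most 12.26%.

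**Figure D1:**
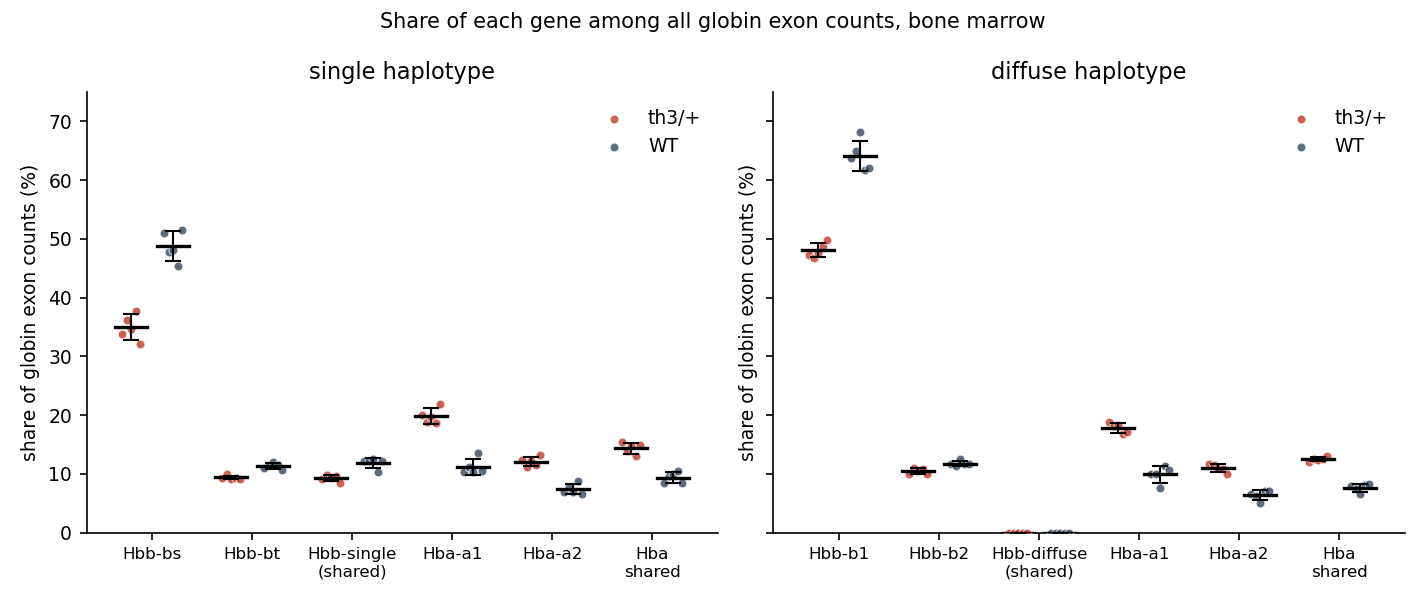
Share of each feature among all globin exon counts (percent, vertical axis) in bone marrow libraries of the single (left) and diffuse (right) haplotype. Points are libraries, bars the mean and SD of 5, with th3/+ (red) left of WT (dark). Hbb-b1 averaged 48.1% in th3/+ and 64.1% in WT diffuse libraries, and Hba-a1 17.8% and 9.94%.

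On the diffuse haplotype the first gene, Hbb-b1, took 47.3%, 46.7%, 47.7%, 48.9% and 49.8% of the counts in th3/+ libraries, against 63.7%, 64.9%, 68.1%, 61.7% and 62.1% in WT libraries. The groups did not overlap, and the log2 odds difference was -0.95 (95% interval -1.15 to -0.78). Hbb-b2, the weaker second gene, took 10.02%, 11.1%, 10.6%, 10.8% and 10.02% in th3/+ libraries, against 11.6%, 11.3%, 12.5%, 11.7% and 11.7% in WT libraries. These groups were separate but close, with a difference of -0.19 (-0.28 to -0.08). Over uniquely assigned counts alone that of Hbb-b2 was -0.10 and no longer passed (exact permutation adjusted p = 0.0556). Relative to alpha exon counts, given below, Hbb-b1 fell by 57.1% and Hbb-b2 by 48.9%.

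Of the 6 diffuse-haplotype shares, 5 passed the threshold (83.3%), 2 lower (33.3%) and 3 higher (50%) in th3/+, each with an exact permutation p of 0.00794 and an adjusted p of 0.00866. Hba-a1 averaged 17.8% ± 0.856 in th3/+ and 9.94% ± 1.41 in WT, and Hba-a2 11.03% ± 0.627 and 6.47% ± 0.842 (SD, n = 5 each). The alpha features were higher in all 5 th3/+ libraries. The sixth share, of reads shared by Hbb-b1 and Hbb-b2, was 0.00553% in th3/+ and 0.00587% in WT and did not pass (exact permutation p = 0.540, adjusted p = 0.540). It rests on 715 to 2212 counts a library.

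Taken gene by gene against the alpha exon counts of the same library, both genes of each beta pair fell in exons and in introns. With edgeR, 11 of 16 single-haplotype features passed the threshold (68.8%), 9 lower (56.2%) and 2 higher (12.5%) in th3/+, and 9 of 16 diffuse-haplotype features did (56.2%), all lower. The 16 features include the alpha exon features that make up the alpha exon sum itself. In exons, Hbb-bs had 759 ± 93.5 counts per 1000 alpha exon counts in th3/+ and 1764 ± 260 in WT (SD, n = 5 each), a fall of 57.0%. Hbb-bt had 204 ± 16.8 in th3/+ and 409 ± 35.6 in WT, a fall of 50.1%. Hbb-b1 fell by 57.1% and Hbb-b2 by 48.9% on the diffuse haplotype. The edgeR adjusted p of these exon features lay between 4.53e-06 and 3.19e-05.

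The introns of the beta genes fell on this scale too. Per 1000 alpha exon counts, Hbb-bs had 0.392 ± 0.0951 intron counts in th3/+ and 1.12 ± 0.178 in WT (SD, n = 5 each), a log2 difference of -1.51 (SE 0.18, edgeR adjusted p = 3.64e-05). Hbb-bt introns had 0.148 ± 0.029 in th3/+ and 0.3998 ± 0.0787 in WT, a difference of -1.44 (SE 0.17). Hbb-b1 introns differed by -1.74 (SE 0.23, edgeR adjusted p = 6.56e-05) and those of Hbb-b2 by -1.16 (SE 0.14).

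Alpha introns that both genes share were also lower per alpha exon count in th3/+. They averaged 1.30 ± 0.312 per 1000 alpha exon counts in th3/+ and 1.95 ± 0.44 in WT on the single haplotype (SD, n = 5 each), a log2 difference of -0.58 (SE 0.20, edgeR adjusted p = 0.0284). Diffuse libraries averaged 1.13 ± 0.249 in th3/+ and 1.84 ± 0.546 in WT, a difference of -0.71 (SE 0.23, edgeR adjusted p = 0.0208). Intron counts given to Hba-a1 or Hba-a2 alone did not pass, with differences of -0.03 and -0.14 on the single haplotype and -0.36 and -0.33 on the diffuse haplotype, where both passed without WT library 1 (-0.47 and -0.46, edgeR adjusted p = 0.0339 and 0.0172).

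The calls of the shared alpha introns were not stable. The single-haplotype call ended without th3/+ library 3 (-0.54, edgeR adjusted p = 0.0643), WT library 3 (-0.49, adjusted p = 0.0768) or WT library 5 (-0.49, adjusted p = 0.0675). The diffuse call ended without WT library 3 (-0.60, edgeR adjusted p = 0.0538), and both ended with all 40 libraries in the fit, where the values were still -0.58 and -0.71 (edgeR adjusted p = 0.184 and 0.107). Against all globin counts as offset, the values of the 16 features rose by a median of 0.73 on the single and 0.79 on the diffuse haplotype. The shared alpha introns then stood at 0.16 and 0.10 and did not pass, and the calls were split into 7 lower and 7 higher on the single haplotype and 6 lower and 5 higher on the diffuse haplotype. With TMM factors the exon calls of Hbb-bt on the single haplotype (-0.27, edgeR adjusted p = 0.197) and of Hbb-b1 on the diffuse haplotype (-0.10, edgeR adjusted p = 0.197) ended, Hbb-b2 introns stood at -0.03, and Hbb-b2 exons turned to 0.15, which did not pass. Exon calls of reads shared by Hbb-bs and Hbb-bt in single mice (-0.34, edgeR adjusted p = 0.126) and of Hbb-bt in diffuse mice (-0.33, edgeR adjusted p = 0.212) ended too. So did the intron calls of Hbb-b1 in single mice (-0.46, edgeR adjusted p = 0.222) and of Hbb-bt in diffuse mice (-0.33, edgeR adjusted p = 0.536). Against the alpha exon sum, which they make up, the alpha genes' own exon features cannot all rise or all fall together, so their values there do not show the level of alpha mRNA. The alpha genes' own exon features did not pass against that sum, and passed as higher in th3/+ against all globin counts. That of Hba-a1 on the single haplotype (0.10, edgeR adjusted p = 0.0587) passed without WT library 4 (adjusted p = 0.0474), with all 40 libraries in the fit (edgeR adjusted p = 0.00602) and with DESeq2 (adjusted p = 7.15e-05), and on the diffuse haplotype (0.06) with DESeq2 (adjusted p = 0.0123). Shared alpha exons of the single haplotype (-0.11, edgeR adjusted p = 0.0633) passed as lower in th3/+ in the same single-haplotype settings (edgeR adjusted p = 0.0474 and 0.0243, DESeq2 adjusted p = 0.00496). DESeq2 was run with the spread of each feature estimated on its own, without the usual sharing between features. With so few libraries its p-values can be too small.

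Beta was lower relative to alpha in th3/+ mice in the intron counts alone as well. On the single haplotype the ratio of all beta to all alpha intron counts was 0.415, 0.366, 0.355, 0.3997 and 0.417 in th3/+ libraries, against 0.747, 0.815, 0.736, 0.781 and 0.717 in WT libraries. On the diffuse haplotype it was 1.26, 1.03, 1.04, 1.13 and 0.928 in th3/+ libraries, against 2.20, 1.63, 2.000, 1.93 and 2.10 in WT libraries. On both haplotypes every th3/+ library lay below every WT library.

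The intron ratio fell by 48.6% on the single haplotype, a log2 difference of -0.96 (95% interval -1.10 to -0.83), and by 45.4% on the diffuse haplotype, a difference of -0.87 (-1.10 to -0.63). Both had an exact permutation p and adjusted p of 0.00794 (n = 5 each). WT single library 3 had an intron ratio of 0.736, and the other 4 WT mice 0.717 to 0.815. The level depends on which alpha introns are counted: with uniquely assigned intron counts alone the log2 differences were -1.40 and -1.18.

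The exon ratio of the same libraries, 1.17 ± 0.132 in th3/+ and 2.60 ± 0.357 in WT on the single haplotype and 1.42 ± 0.0647 and 3.21 ± 0.572 on the diffuse haplotype, differed by -1.16 on the log2 scale in both. Set against it within each library, the intron ratio was 0.340 ± 0.0563 of the exon ratio in th3/+ and 0.298 ± 0.0562 in WT on the single haplotype (SD, n = 5 each). In diffuse libraries it was 0.764 ± 0.111 of the exon ratio in th3/+ and 0.629 ± 0.126 in WT. The groups overlapped on both haplotypes. The log2 differences of 0.19 (95% interval -0.20 to 0.60, exact permutation p = 0.246) and 0.29 (-0.09 to 0.67, exact permutation p = 0.127) did not pass (adjusted p = 0.246 for both). With uniquely assigned counts alone they were -0.18 and 0.02, so a difference between the intron and the exon effect was not detectable in these libraries. WT single library 3 had an exon ratio of 2.66, and the other 4 WT mice 2.04 to 2.92.

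**Figure D2:**
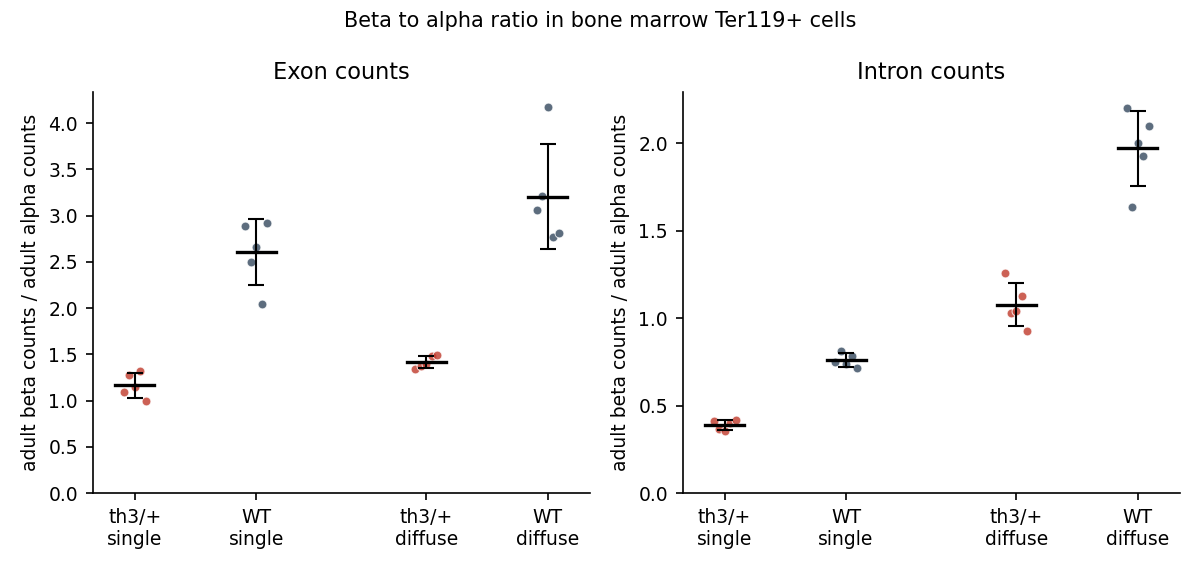
Beta counts divided by alpha counts (vertical axis, no unit) over exons (left) and introns (right) in bone marrow. Points are libraries, bars the mean and SD of 5, with th3/+ left of WT. Every th3/+ library lay below every WT library of its haplotype in both panels. Intron ratios averaged 0.391 ± 0.0282 in th3/+ and 0.759 ± 0.0389 in WT on the single haplotype, and 1.08 ± 0.124 and 1.97 ± 0.215 on the diffuse haplotype.

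Introns per exon count, a within-gene measure of unspliced against spliced transcript, were lower on average in th3/+ for all 6 features tested on each haplotype. None passed the threshold in the exact permutation test (0% on either haplotype) or with limma. Unadjusted, 2 of 6 on the single and 3 of 6 on the diffuse haplotype had a p under 0.05. The largest differences were those of the alpha sum. It had 1.02, 1.95, 1.41, 1.64 and 1.76 intron counts per 1000 exon counts in th3/+ single libraries, against 2.11, 1.77, 2.70, 1.76 and 2.72 in WT single libraries. In diffuse libraries it had 0.946, 1.39, 1.47, 1.23 and 1.71 in th3/+, against 1.42, 2.80, 2.72, 1.97 and 1.72 in WT. The groups overlapped on both haplotypes.

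The log2 differences of the alpha sum were -0.52 (95% interval -1.02 to -0.02, exact permutation p = 0.0397, adjusted p = 0.0952) and -0.63 (-1.18 to -0.02, exact permutation p = 0.0317, adjusted p = 0.0952). WT single library 3 stood at 2.70, and the other 4 at 1.76 to 2.72. Hba-a1 alone had 0.368 ± 0.066 in th3/+ and 0.404 ± 0.0625 in WT on the single haplotype, and 0.319 ± 0.0626 and 0.428 ± 0.105 on the diffuse haplotype (SD, n = 5 each). Hba-a2 alone had 0.369 ± 0.0712 in th3/+ and 0.406 ± 0.0716 in WT on the single haplotype, and 0.324 ± 0.0569 and 0.404 ± 0.109 on the diffuse haplotype.

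In the diffuse pair, whose exon and intron lengths were not used here, the 2 genes are given by counts and not per base. Hbb-b2 had 2.80, 2.37, 2.23, 2.27 and 2.15 intron counts per 1000 exon counts in th3/+ libraries, against 2.51, 2.56, 2.84, 2.51 and 3.00 in WT libraries. Hbb-b1 had 0.474, 0.727, 0.841, 0.639 and 0.841 in th3/+ libraries, against 0.739, 1.21, 1.01, 1.15 and 0.947 in WT libraries. The groups overlapped for both genes, for Hbb-b2 only through th3/+ library 1. The differences were -0.19 (exact permutation p = 0.0635, adjusted p = 0.127) for Hbb-b2 and -0.53 (exact permutation p = 0.0317, adjusted p = 0.0952) for Hbb-b1.

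In the single pair, Hbb-bt had 0.726 ± 0.155 in th3/+ and 0.975 ± 0.147 in WT, and Hbb-bs 0.522 ± 0.148 and 0.636 ± 0.0824 (SD, n = 5 each). The difference was -0.44 for Hbb-bt (exact permutation p = 0.0397, adjusted p = 0.0952) and -0.32 for Hbb-bs (exact permutation p = 0.143, adjusted p = 0.190). WT single library 3 was above the other 4 WT mice for Hbb-bs (0.745, against 0.528 to 0.674) and for the beta sum (0.747, against 0.546 to 0.672). Per base, with 767 and 628 intron and exon bases for Hbb-bs and 770 and 703 for Hbb-bt, the intron density was 0.0428% of the exon density for Hbb-bs in th3/+ and 0.0521% in WT, and 0.0663% and 0.089% for Hbb-bt. The exon bases are those of the GENCODE transcript used, which for Hbb-bt starts upstream of the RefSeq start and for Hbb-bs does not.

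**Figure D3:**
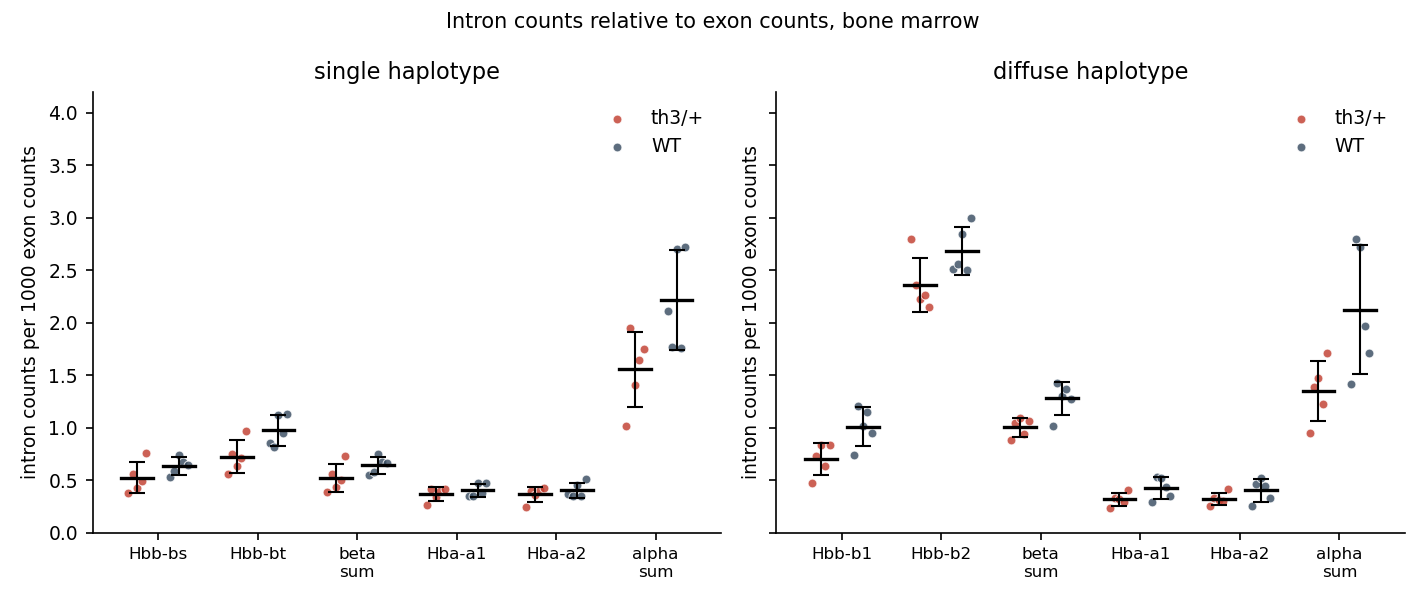
Intron counts per 1000 exon counts (vertical axis) of each gene and of the beta and alpha sums in bone marrow libraries of the single (left) and diffuse (right) haplotype. Points are libraries, bars the mean and SD of 5, with th3/+ (red) left of WT (dark). The alpha sum averaged 1.56 in th3/+ and 2.21 in WT single libraries, with overlapping groups, and it stands above its genes because most alpha intron reads are shared.

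Within pairs, Hbb-b2 rose relative to Hbb-b1 in diffuse th3/+ mice, and Hba-a2 fell relative to Hba-a1 in single th3/+ mice. Of the 4 ratios tested on each haplotype, 1 passed on the single (25%) and 1 on the diffuse haplotype (25%). Hbb-b2 exon counts were 0.212, 0.237, 0.221, 0.221 and 0.201 of those of Hbb-b1 in th3/+ libraries, against 0.183, 0.174, 0.184, 0.189 and 0.188 in WT libraries. The lowest th3/+ library exceeded the highest WT library (log2 difference 0.25, 95% interval 0.15 to 0.36, exact permutation p = 0.00794, adjusted p = 0.0317). Hba-a2 exon counts of the single haplotype were 0.614, 0.595, 0.617, 0.615 and 0.606 of those of Hba-a1 in th3/+ libraries, against 0.663, 0.685, 0.674, 0.647 and 0.629 in WT libraries. The groups were again fully separate (-0.11, -0.17 to -0.05, exact permutation p = 0.00794, adjusted p = 0.0317).

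The other exon ratios had the same directions without passing. Hbb-bt was 0.270 ± 0.0151 of Hbb-bs in th3/+ and 0.234 ± 0.0203 in WT, and 4 of 5 th3/+ libraries exceeded the highest WT library (0.21, exact permutation p = 0.0238, adjusted p = 0.0635, n = 5 each). On the diffuse haplotype Hba-a2 was 0.618 ± 0.0224 of Hba-a1 in th3/+ and 0.652 ± 0.0182 in WT, with 4 of 5 below (-0.08, exact permutation p = 0.0317, adjusted p = 0.0635, n = 5 each). The ratio of Hbb-bt to Hbb-bs passed without th3/+ diffuse library 4, th3/+ single library 4 or WT single library 4 (exact permutation adjusted p = 0.0423 to 0.0476), and the diffuse alpha ratio without th3/+ diffuse library 4 (exact permutation adjusted p = 0.0423). For Hbb-bt to Hbb-bs, the diffuse library acted only through the joint adjustment, and the value stayed at 0.21. In introns, Hbb-b2 stood at 1.25, 0.771, 0.586, 0.786 and 0.515 of Hbb-b1 in th3/+ libraries, against 0.621, 0.368, 0.516, 0.413 and 0.596 in WT libraries. The groups overlapped, and th3/+ library 1 stood far above the rest (0.60, -0.02 to 1.19, exact permutation p = 0.0714, adjusted p = 0.0952).

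Both calls of the balance were close to the threshold. They ended (exact permutation adjusted p = 0.0635) on leaving out any of the WT diffuse libraries 1 to 5 or the th3/+ single libraries 1, 2, 3 or 5. The exact permutation p of the ratio that lost a library was then 0.0159, and that of the other ratio stayed at 0.00794. Both calls ended together because the 8 tests are adjusted together. The differences were then still 0.23 to 0.26 for Hbb-b2 to Hbb-b1 and -0.11 to -0.12 for Hba-a2 to Hba-a1. With limma the alpha balance of the single haplotype did not pass (adjusted p = 0.0720), and with shared reads divided equally 3 of 4 ratios passed on that haplotype. WT single library 3 had an Hba-a2 to Hba-a1 exon ratio of 0.674 and an Hbb-bt to Hbb-bs exon ratio of 0.249, both within the ranges of the other 4. Its Hbb-bt to Hbb-bs intron ratio of 0.374 lay above theirs (0.337 to 0.368).

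**Figure D4:**
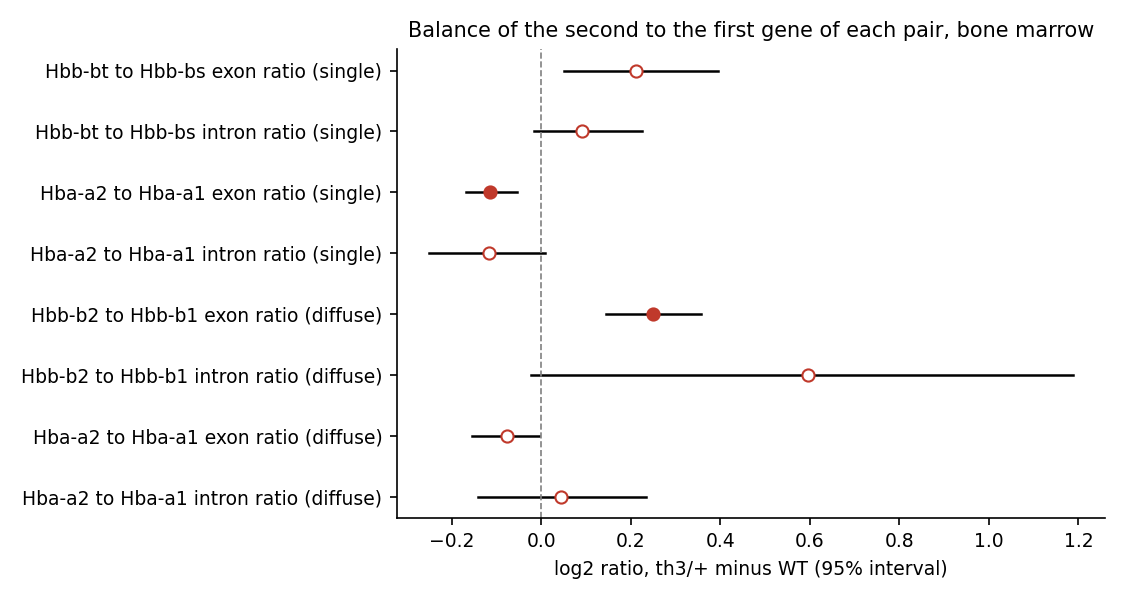
Difference between th3/+ and WT bone marrow in the log2 ratio of the second to the first gene of a pair (horizontal axis, th3/+ minus WT), with its 95% interval, for exon and intron counts. Filled points passed the threshold, open points did not. The exon ratios of the beta pairs lay above 0 (0.21 and 0.25) and those of the alpha pair below 0 (-0.11 and -0.08).

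Small counts were assigned to the beta genes of the haplotype that the mice were not labelled to carry. Of 4 such features in single mice, 2 passed the threshold (50%), both of Hbb-b2, and of 4 in diffuse mice none did (0%) in the exact test, with limma or at an unadjusted p under 0.05. In single mice Hbb-b2 took 252, 217, 299, 268 and 247 exon counts per 1000000 beta exon counts in th3/+ libraries, against 19.9, 23.8, 26.4, 23.7 and 11.1 in WT libraries. Its intron counts were 18, 50, 37, 56 and 61 in th3/+ libraries, against 1, 3, 2, 3 and 0 in WT libraries. The exon and the intron counts of Hbb-b2 thus separated the groups in the same direction. The log2 difference was 3.66 for exons (95% interval 3.22 to 4.25, exact permutation p = 0.00794, adjusted p = 0.0317), and the same p held for the introns per 1000000 beta exon counts. The intron fold depends on the 0.5 counts added, since the WT libraries hold so few.

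Hbb-b1 in the same single libraries did not separate them, with 116, 97.3, 147, 140 and 121 exon counts per 1000000 beta exon counts in th3/+, against 144, 143, 169, 147 and 114 in WT. Relative to alpha exon counts Hbb-b1 exons fell by 60.9% (edgeR adjusted p = 3.19e-05) while Hbb-b2 exons were 5.57-fold higher (edgeR adjusted p = 4.53e-06) in th3/+ single mice. On that scale the carried Hbb-bs and Hbb-bt exons also fell, by 57.0% and 50.1%. Per 1000000 beta exon counts the log2 difference of Hbb-b1 was only -0.21, with overlapping groups (exact permutation p = 0.222, adjusted p = 0.497). WT single library 3 had 26.4 Hbb-b2 exon counts per 1000000 beta exon counts, which was above the other 4 WT mice (11.1 to 23.8) and below the lowest th3/+ library. Its Hbb-b1 value of 169 was also above the other 4 (114 to 147). In diffuse mice Hbb-bt took 97.8, 270, 265, 240 and 195 exon counts per 1000000 beta exon counts in th3/+ libraries and 240, 238, 247, 303 and 255 in WT libraries. Relative to alpha exon counts Hbb-bt exons fell by 62.9% (edgeR adjusted p = 0.000727), a call that ended with TMM factors (-0.33, edgeR adjusted p = 0.212). Hbb-bs took 45.1 to 59.96 in 4 th3/+ libraries and 315 in library 3, against 43.2 to 81.1 in WT libraries. The shared column of the haplotype not carried (Hbb-single in diffuse mice, Hbb-diffuse in single mice) held 0 exon and 0 intron counts in every bone marrow library. Whether these reads come from the genes named, from the genes carried or from elsewhere was not tested.

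**Figure D5:**
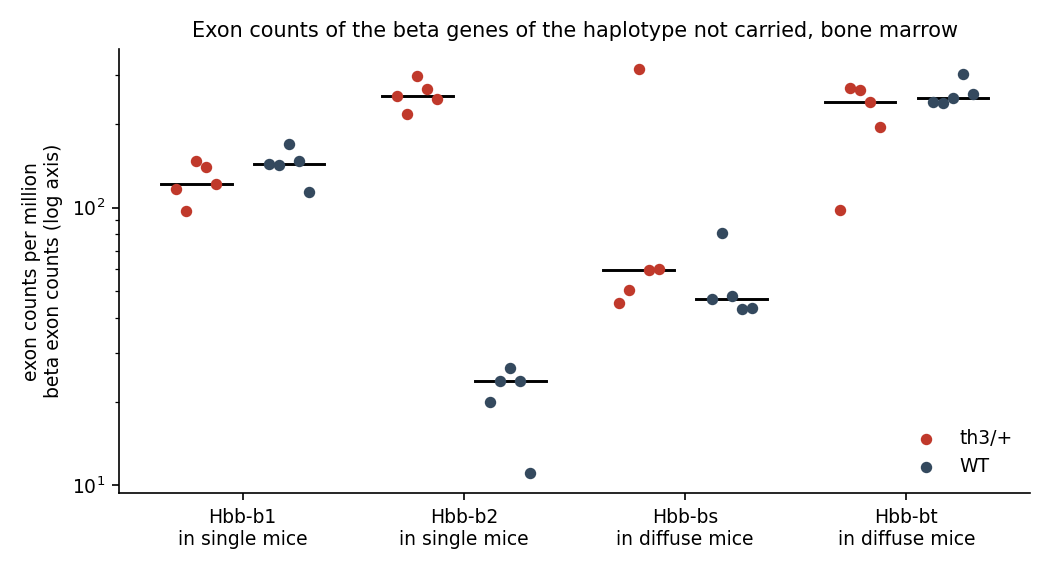
Exon counts of beta genes of the haplotype not carried, per 1000000 beta exon counts (vertical axis, log scale), in single mice (Hbb-b1, Hbb-b2) and diffuse mice (Hbb-bs, Hbb-bt). Points are libraries and bars medians, with th3/+ (red) left of WT (dark). Hbb-b2 in single mice is separated, at 217 to 299 in th3/+ and 11.1 to 26.4 in WT.

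The spread between libraries was larger in WT for some measures and larger in th3/+ for others. The SD of the log2 value was larger in WT for 13 of 23 measures on the single haplotype and 15 of 23 on the diffuse haplotype. The exon beta/alpha ratio of diffuse libraries had an SD of 0.07 in th3/+ and 0.24 in WT on the log2 scale, with th3/+ libraries between 1.35 and 1.49 and WT libraries between 2.77 and 4.18. All 6 single shares and 5 of 6 diffuse shares had the larger SD of log2 odds in WT. For introns per exon count this was so in 0 of 6 single and 4 of 6 diffuse features. In introns per 1000 exon counts of Hbb-bs, for example, the coefficient of variation was 28.3% in th3/+ and 12.95% in WT. These are descriptions, and no test of the spread was made.

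The th3/+ effect was not shown to differ between the haplotypes in any of 8 measures by permutation of residuals, and 0 of 8 had an unadjusted p under 0.05. For the intron beta/alpha ratio the effect was -0.87 on the diffuse and -0.96 on the single haplotype, a difference of 0.09 (permutation p = 0.439, adjusted p = 0.879). On the linear scale, where WT diffuse libraries start from the higher ratio, the difference was -0.53 and passed (permutation adjusted p = 0.00304). The largest difference was that of the second to the first beta gene in introns, 0.60 for Hbb-b2 to Hbb-b1 and 0.09 for Hbb-bt to Hbb-bs (difference 0.50, permutation p = 0.0549, adjusted p = 0.322). Introns per exon count differed by -0.12 for the alpha sum and -0.02 for the beta sum between the haplotypes (permutation adjusted p = 0.931 and 0.960).

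Within mice, none of 8 effects differed between bone marrow and spleen past the threshold in the exact permutation test, and 4 of 8 had an unadjusted p under 0.05. On the single haplotype the effect on alpha introns per exon count was -0.52 in bone marrow and 0.62 in spleen, a difference of -1.14 (95% interval -2.11 to -0.36, exact permutation p = 0.00794, adjusted p = 0.0635, 10 mice). On the diffuse haplotype it was -0.63 in bone marrow and 0.74 in spleen (difference -1.37, exact permutation p = 0.0476, adjusted p = 0.0952, 10 mice). The single-haplotype difference passed on leaving out WT diffuse mouse 1 or 5 or WT single mouse 2 (exact permutation adjusted p = 0.0317), and in an unpaired permutation test (adjusted p = 0.0416). Leaving out a diffuse mouse kept its value and unadjusted p as they were, and acted only through the joint adjustment of the 8 tests. The unpaired permutation test took bone marrow and spleen of a mouse as independent, so its p ignores the pairing and carries less weight than the exact test within mice. The diffuse-haplotype difference passed without WT diffuse mouse 1 (-1.74, exact permutation adjusted p = 0.0317). The spleen value went with low WT libraries, with 0.538 and 0.506 intron counts per 1000 exon counts in WT single spleen libraries 4 and 5 and 0.242 and 0.302 in WT diffuse spleen libraries 4 and 5. The other WT spleen libraries had 1.06 to 1.46 on the single and 1.19 to 2.08 on the diffuse haplotype. The intron beta/alpha ratio fell in both tissues, by 0.96 in bone marrow and 1.15 in spleen on the log2 scale on the single haplotype (difference 0.18, exact permutation p = 0.0238, adjusted p = 0.0635, 10 mice). On the diffuse haplotype it fell by 0.87 in bone marrow and 1.38 in spleen (difference 0.51, 95% interval -0.10 to 1.22, exact permutation p = 0.127, adjusted p = 0.169, 10 mice). The exon ratio of the single haplotype fell by 1.16 in bone marrow and 0.77 in spleen (difference -0.39, -0.64 to -0.13, exact permutation p = 0.0238, adjusted p = 0.0635, 10 mice), and it passed in the unpaired permutation test (adjusted p = 0.0416).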

How the data were processed

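Ter119+ cells of 20 mice were sequenced as total RNA from bone marrow, with a TruSeq Stranded Total RNA Gold kit, according to the protocols in the labels. The authors deposited unscaled read counts, with exons and introns of each gene in columns of their own. The submitters' processing notes list mm10, HTSeq, SAMtools, STAR 2.5.3a and STAR 2.7.9a but do not say which served which step. Strandedness of the counting and the handling of multiply matching reads are not given in the sources used here. Of the value columns, 18 were used, and 32 derived ones were not.

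Rows of the table name the genotype, haplotype, tissue and mouse, but no replicate number, so libraries are numbered 1 to 5 in table order within a group. Ratios and shares were computed within each library, which needs no library size, and counts of the haplotype not carried had 0.5 added. Groups were compared on the log2 scale (log2 odds for shares) with two-sided exact permutation tests (252 splits, smallest possible p 0.00794), which were inverted for the 95% intervals. Differences between haplotypes were tested with 100000 permutations of residuals, and differences from spleen with the exact test on differences within mice. Counts were also tested with edgeR's quasi-likelihood test, each haplotype on its own 10 libraries, with the alpha exon sum as offset and 32 tests adjusted together, over features with at least 10 counts in some library. The SE beside these values was derived, as the absolute log2 difference divided by the square root of the quasi-likelihood F statistic. Benjamini-Hochberg adjustment was made within each family of tests, with a threshold of 0.05. All listed genes are named, with no choice among them. The members, measures and tests were chosen with earlier results of these data known, and the ratio of the intron to the exon beta/alpha ratio was added after its values had been seen. The tests were checked on simulated data. Alternatives were limma, DESeq2, other denominators, offsets and treatments of shared reads, a linear scale, no filter on low counts, and leaving out each library. DESeq2 used a Wald test with the dispersion of each feature estimated on its own, with no trend or shrinkage. The tools were edgeR 4.0.16, DESeq2 1.42.0 and limma 3.58.1 in R 4.3.3, and pandas 2.3.3, scipy 1.17.1, numpy 2.4.6 and matplotlib 3.10.9 in Python 3.11.15.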

Additional observations from a re-analysis of the deposited data

Results flagged for a closer look

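Of 92 sets of 5 values (23 measures in each of 4 groups) examined for a library far from its group, 7 held one. The chance rate for 1 set is about 1 in 20, but the measures share counts, so the sets are not independent. The widest gap was that of Hbb-bs in th3/+ diffuse library 3, with 315 exon counts per 1000000 beta exon counts against 45.1 to 59.96 in the other 4 libraries. Without that library, Hbb-bs per alpha exon count was lower in th3/+ diffuse mice (log2 difference -1.14, edgeR adjusted p = 0.0040), whereas with it the difference was -0.18 and did not pass. WT diffuse library 2 had 81.1 Hbb-bs exon counts per 1000000 against 43.2 to 47.9 in the others, and WT diffuse library 4 had 303 Hbb-bt exon counts per 1000000 against 238 to 255.

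WT single library 4 stood apart in a pair of shares, with 10.3% of reads shared by Hbb-bs and Hbb-bt against 12.1% to 12.5%, and 13.5% of Hba-a1 against 10.4% to 11.3%. Hbb-bt took 9.93% in th3/+ single library 2 against 9.21% to 9.38% in the other libraries. Hbb-b1 introns were at 0.884 per 1000000 beta exon counts in WT single library 5 against 0.489 to 0.563, which rests on at most 10 counts a library.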

How the results depend on the processing

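No paired analysis was possible because th3/+ and WT libraries come from different mice and carry no shared replicate number, so the planned replicate block was not run. Bone marrow and spleen of the same mouse were paired in the comparison of the tissues. The exon and intron beta/alpha ratios passed in the same direction under every alternative run. Against all globin counts as offset, edgeR turned 11 values positive. These were Hba-a2 exons (0.71 single, 0.77 diffuse), shared alpha exons (0.62, 0.71), introns of Hba-a1 (0.70, 0.44), Hba-a2 (0.59, 0.46) and both alpha genes (0.16, 0.10), and Hbb-bs exons (0.63 diffuse). With TMM factors, which raised all features by a median of 0.71 on the single and 1.11 on the diffuse haplotype, these stood at 0.70, 1.08, 0.62, 1.02, 0.65, 0.75, 0.54, 0.79, 0.10, 0.42 and 0.92, and Hbb-b2 exons (0.15), reads shared by the diffuse pair (0.23) and Hbb-bs introns (0.23) of diffuse mice also turned positive. The calls were then split into 5 lower and 7 higher on the single haplotype and 2 lower and 5 higher on the diffuse haplotype.

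Over uniquely assigned counts 3 diffuse shares passed, since 2 features were left out and Hbb-b2 was lost, and the intron over exon ratio of the single haplotype was -0.18. With shared reads divided equally 3 balance ratios passed on the single haplotype and Hba-a2 to Hba-a1 introns stood at -0.015 on the diffuse haplotype, and limma passed 0 on the single haplotype. Over pair sums Hbb-b2 introns per exon differed by 0.022. On the linear scale Hbb-bt introns in diffuse mice differed by -0.048, and the effects of the haplotypes by -0.53 (intron ratio) and -0.00131 (second to first beta exons). The unpaired test of bone marrow against spleen, which ignores that both come from the same mice, passed for the single exon ratio (-0.39, permutation adjusted p = 0.0416). The cause was not tested.

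With 1 library or mouse left out, balance calls ranged from 0 to 3 on the single and 0 to 2 on the diffuse haplotype. The values that changed sign, none of them past the threshold, ranged from -0.136 to 0.214 for Hbb-b1 introns in single mice, -0.177 to 0.276 for Hbb-bt introns in diffuse mice, -0.089 to 0.073 for Hba-a1 introns of the single haplotype and -0.023 to 0.0092 for Hba-a2 exons of the diffuse haplotype. Those of the difference between haplotypes ranged from -0.063 to 0.091 for the exon ratio, -0.120 to 0.112 for beta introns per exon and -0.260 to 0.0051 for alpha introns per exon. Hbb-bs exons in diffuse mice ranged from -1.14 (without th3/+ library 3, where they passed) to 0.029. The difference from spleen of the intron ratio of single mice (0.125 to 0.227) passed without WT diffuse mouse 1 or 5 (0.18) or WT single mouse 2, that of the single exon ratio (-0.454 to -0.325) without WT diffuse mouse 1 or 5, and that of the diffuse exon ratio (-0.328 to -0.070) without WT diffuse mouse 5. Diffuse mice enter the single-haplotype calls only through the joint adjustment of the tests.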
